A study of Homo sapiens with 4 samples.

Results

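FYN is a tyrosine kinase of the Src family, and its gene offers a choice between a pair of mutually exclusive exons, called exon 7A and exon 7B. All events with the gene symbol FYN were taken from the 5 deposited event tables, 1 for each kind of alternative splicing. Of the 121269 events of 12219 genes in these tables, 14 belong to FYN. They comprise 5 events of mutually exclusive exons and 9 skipped exon events. The gene has 0 events in the tables of retained introns and of alternative splice sites at either exon end. FYN was chosen by its difference in exon 7 inclusion between RBFOXi and SCRM in these same libraries. Its values in that comparison are therefore given as a description, and no test of them is read as a result.

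The RNA-seq was made from U87MG cells, a human glioblastoma cell line, transfected with 2.5 µM of an oligonucleotide in all 4 libraries. RBFOXi is a single-stranded decoy RNA built of repeats of the motif bound by the splicing factors RBFOX1/2. SCRM is a scrambled control oligonucleotide. There were 2 biological replicates of each. The labels give the dye Cy5 to the RBFOXi oligonucleotide of replicate 1 alone. All libraries come from the same cell line, and no untransfected cells were analysed here. Summed over skipped exon events, the libraries held 114415530 to 136097319 counts, the fewest in SCRM replicate 1. Of the glioblastoma and astroglial markers, VIM, NES, CD44, TNC and FN1 had at least 20 counts in every library on their largest event, and GFAP, S100B, SOX2 and OLIG2 have no event in the tables used here.

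FYN relays signals from integrins, growth factor receptors and immune receptors by phosphorylating tyrosines. Like its relatives it carries a membrane anchor, SH3 and SH2 domains, a linker and a kinase domain. Exon 7A or exon 7B supplies the linker and the start of the kinase domain, including the glycine-rich loop that binds ATP. The protein with exon 7A is known as FynB and is widespread, with high levels in brain. The protein with exon 7B is known as FynT and is the usual form of T cells and other blood cells. RBFOX1/2 bind UGCAUG in introns. Inclusion of an exon is typically promoted by a site downstream of it and repressed by a site upstream of it.

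The FYN gene spans chr6:111981535-112194655 in hg19 and is transcribed from the minus strand. Exon 7A, chr6:112021307-112021471, has 165 nt and is exon 9 of the 14 exons in the reference transcript of GENCODE, FYN-202. Exon 7B, chr6:112020718-112020873, has 156 nt and is absent from that transcript. Both are wholly coding and are multiples of 3, so that they supply 55 and 52 codons. The 5 complete coding transcripts in the annotation comprise 2 with exon 7A and 537 residues (FYN-202 and FYN-203), 2 with exon 7B and 534 residues (FYN-204 and FYN-205), and 1 with neither exon and 482 residues (FYN-201). An exon of 150 nt lies before the pair and an exon of 180 nt after it. The sequences of the competing exons are shown because the reads that tell them apart carry the measurements of this choice below. They are written 5′ to 3′ on the gene strand, and capitals mark bases that are identical in a global alignment of the pair.
Exon 7A: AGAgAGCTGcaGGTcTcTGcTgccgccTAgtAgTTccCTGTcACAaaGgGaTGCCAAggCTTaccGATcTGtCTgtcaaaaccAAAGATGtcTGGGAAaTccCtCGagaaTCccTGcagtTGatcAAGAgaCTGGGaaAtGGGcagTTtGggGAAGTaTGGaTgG
Exon 7B: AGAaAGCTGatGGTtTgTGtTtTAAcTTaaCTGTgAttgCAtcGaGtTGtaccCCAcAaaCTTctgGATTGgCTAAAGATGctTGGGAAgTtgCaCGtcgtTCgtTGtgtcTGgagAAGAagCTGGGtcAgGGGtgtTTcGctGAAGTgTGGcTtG
The exons were identical at 94 of 148 aligned positions (63.5%), with 25 positions in gaps. The GC content was 51.5% for exon 7A and 46.8% for exon 7B.

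The intron between exon 7A and exon 7B is 433 nt long, and the motif UGCAUG lies in it once. The copy begins at nucleotide 374 of the intron, downstream of exon 7A, and ends 54 nt before exon 7B. The last 100 nt of this intron, chr6:112020874-112020973, are shown with the motif in capitals, written with T for U.
Intron before exon 7B: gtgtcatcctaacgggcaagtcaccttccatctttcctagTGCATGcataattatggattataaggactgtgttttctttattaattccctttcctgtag
Among the 3′ exons of all tested mutually exclusive pairs, 460 of 17150 (2.682%) had UGCAUG in the last 100 nt before them, and 11.988% had it in the last 433 nt. The intron before exon 7A, of 2616 nt, has 2 copies, the nearer of which ends 1469 nt before the exon. The intron after exon 7B, of 3058 nt, also has 2 copies, which begin at nucleotides 1232 and 1982. The intron between the 104 nt exon and the 150 nt exon, which lies further upstream, has 0. Neither exon 7A nor exon 7B has the motif in the first 300 nt downstream of it, where 8.55% of the 5′ exons of tested pairs have it. The search covered the gene strand only, and the copy in the 433 nt intron overlaps CATGCA, which is UGCAUG read on the opposite strand. The presence of a motif is a description of the sequence and does not show that it was bound.

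**Figure D1:**
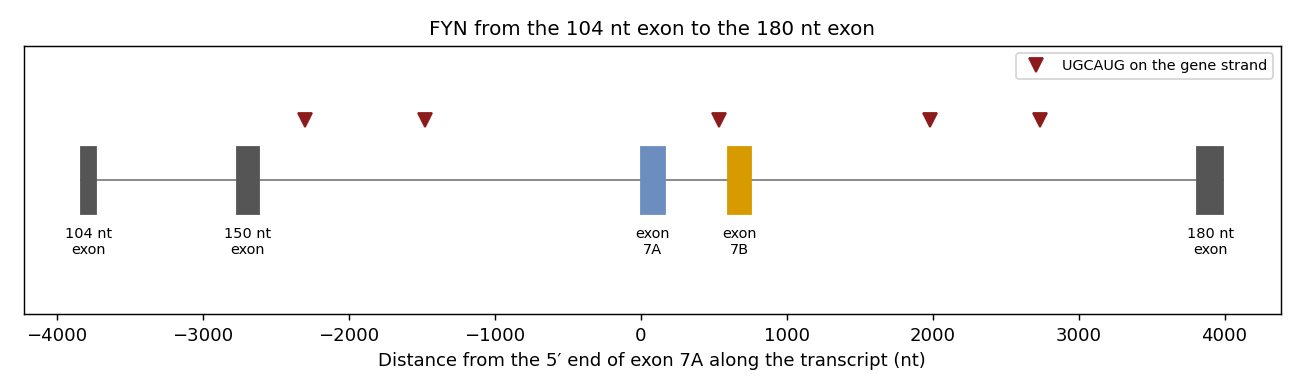
Map of FYN from the 104 nt exon to the 180 nt exon, drawn to scale. The x axis gives the distance in nt from the 5′ end of exon 7A along the transcript, boxes are exons and triangles mark UGCAUG on the gene strand. A single copy lies between exon 7A and exon 7B, 54 nt before the latter.

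The 5′ splice sites of the pair differ in sequence. They are shown because each joins its exon to the 180 nt exon, with the invariant GT in capitals.
5′ splice site of exon 7A: GTatgctgagactcaattac
5′ splice site of exon 7B: GTaaggcagagggcacattt

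RBFOXi-transfected cells had less exon 7A and more exon 7B than SCRM-transfected cells. The proportion spliced in (PSI) was computed from the counts of each form divided by its effective length, and for this pair a PSI of 1 stands for exon 7A only and 0 for exon 7B only. In the event in which the 150 nt exon comes before the pair, the version with the most counts, the PSI was 0.5841 in RBFOXi replicate 1, 0.4426 in RBFOXi replicate 2, 0.8082 in SCRM replicate 1 and 0.7280 in SCRM replicate 2. Exon 7A was thus the main form in both SCRM libraries, whereas in RBFOXi replicate 2 exon 7B outnumbered it. The means were 0.513 ± 0.1001 for RBFOXi and 0.768 ± 0.0567 for SCRM (SD, n = 2 each), a delta PSI of -0.255. The groups did not overlap, and the difference was larger than the gap between replicates of either group. The replicates of RBFOXi, of which replicate 1 carried the dye, nevertheless differed from each other by more than those of SCRM. Between libraries of the same replicate number the difference was -0.224 for number 1 and -0.285 for number 2. Without SCRM replicate 1 it was -0.215, and leaving out any other library gave values from -0.326 to -0.184.

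The same pair was counted a second time in the deposited table with the 104 nt exon in front, which is the exon before the 150 nt exon. In this version the PSI was 0.597 and 0.4527 in the RBFOXi libraries and 0.8259 and 0.745 in the SCRM libraries, with a delta PSI of -0.261. The versions share the reads within exon 7A and exon 7B and those that join them to the 180 nt exon, so they are not independent of each other. They differ in the reads that join the pair to the exon before it, and almost no read joins the 104 nt exon to the pair.

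That difference allowed the junctions to be counted on their own. Subtracting events that share an exon body gave the number of reads that join the 150 nt exon to exon 7A, and likewise to exon 7B. Junction counts that could be solved from more than 1 pair of events were compared in each library, and 0 of the 16 comparisons disagreed. The junction to exon 7A had 892 and 719 counts in RBFOXi replicates 1 and 2, and 1053 and 1101 counts in SCRM replicates 1 and 2. The junction to exon 7B had 658 and 916 counts in the RBFOXi libraries, and 285 and 443 counts in the SCRM libraries. Counts of the exon 7A junction were lower, and those of the exon 7B junction higher, in each RBFOXi library than in either SCRM library.

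As a share of both junctions, exon 7A made up 57.5% (95% Wilson interval 55.1 to 60.0%) in RBFOXi replicate 1 and 43.98% (41.6 to 46.4%) in RBFOXi replicate 2. In SCRM replicates 1 and 2 the share was 78.7% (76.4 to 80.8%) and 71.3% (69.0 to 73.5%). These intervals cover counting error only, and the gap between replicates was wider than they are. The difference between the group means was -0.242 as a fraction, on reads that need no adjustment for exon length. The version after the 104 nt exon rests almost wholly on the remaining reads, on the exon bodies and the junctions to the 180 nt exon, and its means were 0.525 ± 0.102 for RBFOXi and 0.785 ± 0.0572 for SCRM (SD, n = 2 each). Both sets of reads put the libraries in the same order, with SCRM replicate 1 highest and RBFOXi replicate 2 lowest.

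**Figure D2:**
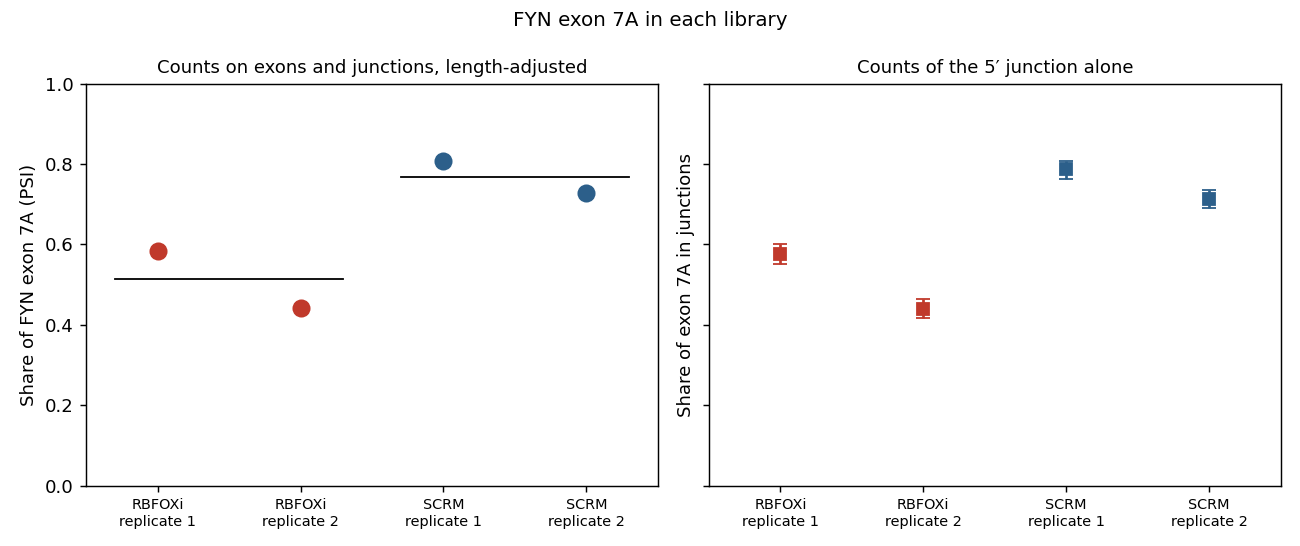
Share of FYN exon 7A in each library. The left panel plots PSI from counts on exons and junctions, with lines at the group means, and the right panel the share of exon 7A among reads that join the 150 nt exon to exon 7A or 7B, with 95% Wilson intervals. In both panels the RBFOXi libraries lie below the SCRM libraries, at PSI values of 0.5841 and 0.4426 against 0.8082 and 0.7280.

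The amounts of the 2 forms differed in opposite directions while their sum differed little. Levels were expressed as CPM, the counts of a form scaled to all counts over the skipped exon events of the library. The exon 7A form had 17.73 and 12.01 CPM in the RBFOXi libraries, and 24.19 and 19.71 in the SCRM libraries. The exon 7B form had 12.15 and 14.55 in the RBFOXi libraries, and 5.524 and 7.084 in the SCRM libraries. The mean of exon 7B was 2.12 times as high with RBFOXi as with SCRM, and the mean of exon 7A was 0.677 times as high. Their sum was 28.21 ± 2.35 CPM with RBFOXi and 28.25 ± 2.07 with SCRM (SD, n = 2 each), and there the groups overlapped. The scale rests on sums to which 1 read can contribute through several events. In a bulk sample a lower count cannot tell fewer cells with a form from less RNA of that form per cell.

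**Figure D3:**
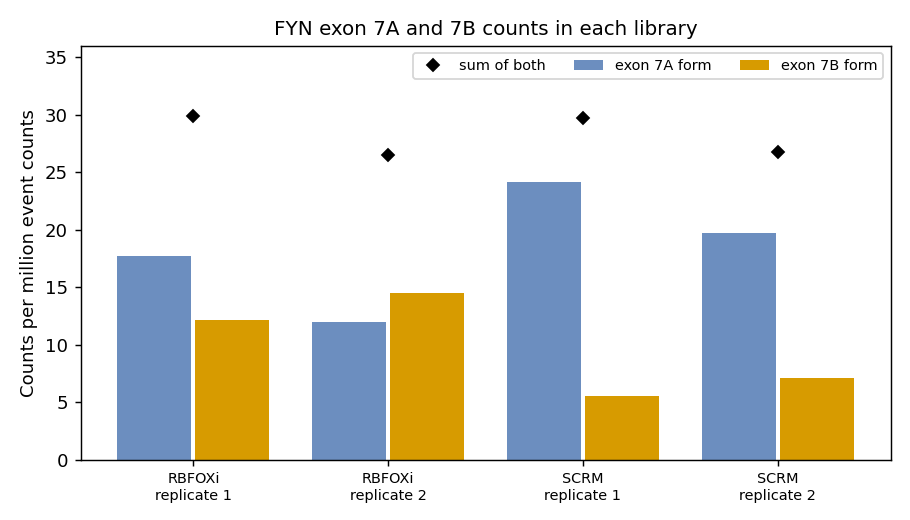
Counts of the exon 7A form and the exon 7B form of FYN, in CPM relative to all skipped exon event counts, by library. Bars start at 0, and diamonds give the sum of both forms, which lay between 26.55 and 29.88 in the 4 libraries while the exon 7B bars were higher with RBFOXi.

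Per effective length, exon 7A was 1.40 times as abundant as exon 7B in RBFOXi replicate 1 and 0.794 times in replicate 2. In SCRM the ratio was 4.21 in replicate 1 and 2.68 in replicate 2. Both exons together had 1.03 to 1.27 times the counts per effective position of the 150 nt exon in front of them, so that the pair accounted for about as many reads as its neighbour in each library.

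Leaving out both exons, which corresponds to the coding transcript of 482 residues, was rare in all libraries. Reads that join the 150 nt exon directly to the 180 nt exon numbered 6 and 2 in the RBFOXi libraries and 2 and 3 in the SCRM libraries. Their share of all junctions from the 150 nt exon was highest in RBFOXi replicate 1, at 0.386% (95% Wilson interval 0.177 to 0.839%). The lowest share was that of RBFOXi replicate 2, at 0.122% (0.0335 to 0.444%). The SCRM libraries lay between them, so the groups overlapped, and a difference between the groups was not tested. The deposited skipped exon events of exon 7A and of exon 7B, which set each exon against these reads, had a PSI between 0.9896 and 0.9980 in every library. They do not show the choice within the pair, because reads of the other exon are not counted in them.

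The 150 nt exon itself was present in nearly all FYN transcripts. Reads that join the 104 nt exon directly to exon 7A or to exon 7B were 0 in 3 of the libraries, and 1 for each exon in SCRM replicate 1. The table of mutually exclusive exons nevertheless holds events in which the 150 nt exon is set against exon 7B (delta PSI -0.142) and against exon 7A (delta PSI 0.126). The junction counts above show that the 150 nt exon is joined to both exons, so these events do not measure a choice between the exons they name. Their PSI for the 150 nt exon against exon 7B was 0.6452 and 0.6250 with RBFOXi and 0.7789 and 0.7750 with SCRM. Against exon 7A it was 0.5511 and 0.6683 with RBFOXi and 0.4262 and 0.5410 with SCRM. The direction of each followed the counts of the exon 7 form in it.

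Outside exon 7 the differences in FYN were small. The noncoding 5′ end has an exon of 41 nt, chr6:112167792-112167832, and an exon of 70 nt, chr6:112101769-112101838, between the first exon and the 258 nt exon in which the coding sequence begins. As a mutually exclusive pair they had a PSI, here the share of the 41 nt exon, of 0.1552 and 0.1648 with RBFOXi and of 0.1797 and 0.1457 with SCRM. The delta PSI was -0.00271, and the groups overlapped. Reads that join the 41 nt exon to the 70 nt exon numbered 90 to 184 per library, so these exons are also combined in the same transcripts. Of the reads that lead into the 70 nt exon from the first exon or the 41 nt exon, the latter gave a fraction of 0.8281 and 0.785 with RBFOXi and of 0.8571 and 0.7931 with SCRM. The PSI of the 41 nt exon before the 70 nt exon was 0.9034 ± 0.0134 with RBFOXi and 0.9112 ± 0.0301 with SCRM (SD, n = 2 each).

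The remaining skipped exon events of FYN had few skipping counts. Skipping of the 70 nt exon had at most 7 counts in a library, and its delta PSI was -0.00681 after the first exon and 0.00367 after the 41 nt exon. The 41 nt exon set against direct joining of the first exon to the 258 nt exon rested on 0 to 7 skipping counts, and its delta PSI of -0.0336 was the largest among the skipped exon events. The exon of 132 nt, chr6:111995702-111995833, in the kinase domain near the 3′ end of the gene, had 2592 to 4187 inclusion counts and at most 1 skipping count per library.

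Coverage along the gene differed in SCRM replicate 1. Counts per effective position of the 132 nt exon were 4.85 times those of the 70 nt exon in this library. In the other 3 libraries the ratio was 1.57 to 2.07, so SCRM replicate 1 had relatively more reads at the 3′ end of FYN. The exon 7 pair lies between these exons, and its summed counts per effective position were 14.45 in SCRM replicate 1 against 15.45 to 15.99 in the others. SCRM replicate 1 also had the highest share of exon 7A. The part of the coverage in that share was not tested, and without this library the delta PSI of the pair was -0.215. Levels of the whole gene could not be ranked: the 132 nt exon had 24.6 and 22.59 CPM with RBFOXi, and 36.59 and 19.17 with SCRM.

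**Figure D4:**
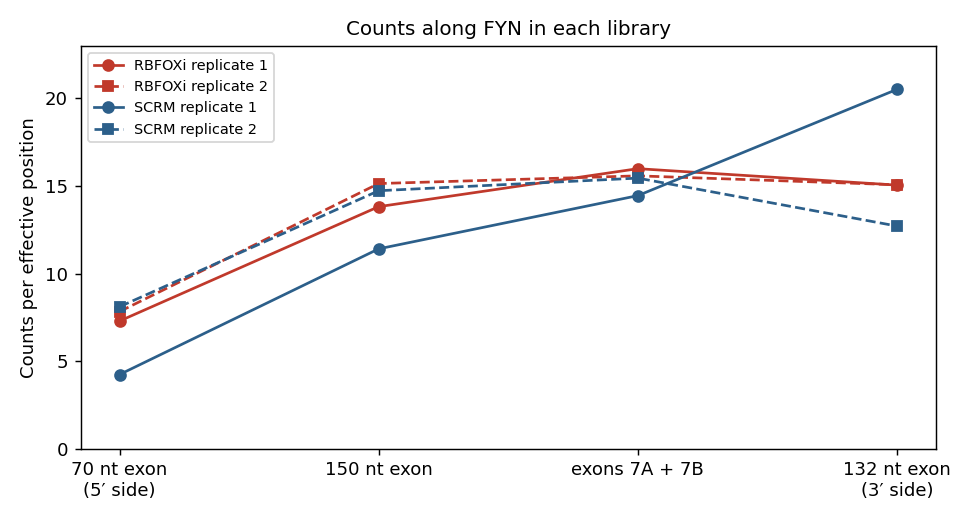
Counts per effective position along FYN in each library, for the 70 nt exon on the 5′ side, the 150 nt exon, exons 7A and 7B together and the 132 nt exon on the 3′ side. SCRM replicate 1 went from 4.23 at the 70 nt exon to 20.52 at the 132 nt exon, whereas the other libraries reached 12.71 to 15.07 at the latter.

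Set against all events, the exon 7 pair had one of the larger differences in inclusion, in the contrast by which the gene was chosen. Of the 14 FYN events, 11 had enough counts to enter the fit across all events, which used limma on the log2 odds of inclusion (the log2 ratio of the forms). These were all 5 events of mutually exclusive exons and 6 of the skipped exon events. A call required a delta PSI of 0.1 or more in either direction and a p-value, after Benjamini-Hochberg adjustment, under 0.05. The FYN events are part of the totals that follow. Whether they were called is not read as a result about FYN, since the gene was chosen by this contrast. By this rule 0 of 26176 tested events of mutually exclusive exons (0%) and 27 of 39615 skipped exon events (0.0682%) were called. Of the former, 395 (1.51%) had an unadjusted p-value under 0.05. That share is smaller than a test at its nominal level gives for events without any difference. The lack of a call, here and below, is therefore not read as the lack of a difference. An absolute delta PSI as large as that of the exon 7 pair was found in 46 of the 26176 events (0.176%). The groups did not overlap in 7 of the 11 FYN events, a separation shown by 24.4% of all tested events of mutually exclusive exons and by 30.8% of skipped exon events. Of these 7, 4 involve exon 7A or 7B as mutually exclusive exons and share reads. The skipped exon event of exon 7A, also among them, uses the same exon 7A counts against 2 to 6 skipping counts. The rest are the 70 nt exon after the first exon and the 41 nt exon before the 258 nt exon. Each of these rested on 0 to 7 skipping counts per library. The 7 events are therefore not 7 separate differences.

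**Figure D5:**
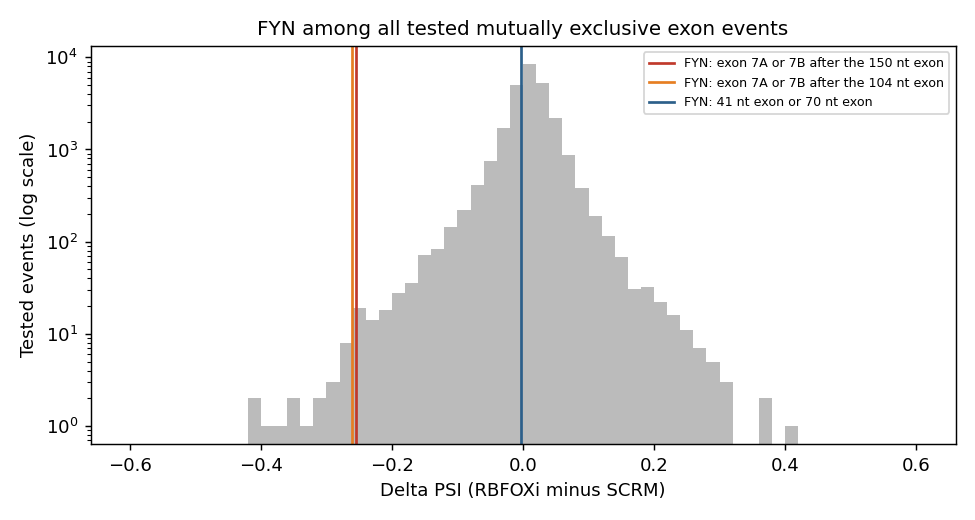
Distribution of delta PSI (RBFOXi minus SCRM) over the 26176 tested events of mutually exclusive exons, with a log-scaled y axis giving the number of events in bins of 0.02. Vertical lines mark the FYN exon 7 pair after the 150 nt exon (-0.255) and after the 104 nt exon (-0.261), in the lower tail, and the pair of 41 nt and 70 nt exons (-0.00271) near the centre.

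The genes whose libraries followed the FYN pattern most closely were sought among tested events of mutually exclusive exons. The measure was the distance, over the 4 libraries, between PSI values from which the mean of the event had been subtracted, and 6684 other genes were compared. The nearest were SAMD14 (distance 0.0230), WDR27 (0.0493), CDHR5 (0.0626), NQO2 (0.0708) and SLMAP (0.0744), against a median distance of 0.296 over all these events. The SAMD14 pair had a PSI of 0.3044 and 0.1849 with RBFOXi and of 0.537 and 0.439 with SCRM. All 5 rested on far fewer counts than FYN, with 6 to 83 per library, where FYN had 3400 to 3729.

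Other genes of the Src pathway were examined from a list of 42 gene symbols of the Src family, its regulators and its substrates. Of these, 27 have events in the tables used here and 21 had 215 tested events. In this list 1 event was called, with lower inclusion, and 0 with higher inclusion (0.465%, against 0.0374% of all tested events). The list was chosen with earlier results of these data known, so this share and the call are not independent of those results. The called event lies in CTTN, which encodes cortactin, an actin-binding substrate of Src kinases. Its exon of 111 nt, chr11:70267576-70267686, had a PSI of 0.469 and 0.3745 with RBFOXi and of 0.7991 and 0.7672 with SCRM. The groups did not overlap, and the log2 odds fell by 2.31 ± 0.248 (SE, limma adjusted p = 0.00151). The delta PSI was -0.361, and from -0.409 to -0.314 with each library left out in turn. With a pseudocount of 1 the adjusted p-value was 0.000113 (limma). With a pseudocount of 0.1 in place of 0.5 the adjusted p-value of this exon was 0.255, and it was 0.358 without SCRM replicate 1 and 0.172 without SCRM replicate 2. Without adjustment, 19 of the 215 events had a p-value under 0.05 (8.84%, against 2.81% of all tested events), and of these 10 lie in CTTN and 7 in PTK2. Events of the same gene share reads, so these counts are not independent.

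Among the relatives of FYN, YES1 had 5 tested events and 0 calls. The YES1 event with the smallest p-value had a delta PSI of 0.0767 (limma, adjusted p = 1.0). Its PSI was 0.6823 and 0.6939 with RBFOXi and 0.5434 and 0.6795 with SCRM, on 96 counts in SCRM replicate 1 and 1012 to 1699 in the other libraries. Without SCRM replicate 2 this event was called (delta PSI 0.145, limma adjusted p = 0.0153), with the SCRM group then resting on the 96 counts alone. SRC has no event in the tables used here, and LYN had 1 event that was not tested. CSK, the kinase that phosphorylates the inhibitory tail of Src kinases, had 3 tested events, of which the retained intron with the smallest p-value had a delta PSI of 0.0672 (limma, adjusted p = 1.0). In PTK2, which encodes the focal adhesion kinase that binds FYN, 0 of 78 tested events were called. The event with its smallest p-value had a delta PSI of 0.0178 (limma, adjusted p = 1.0). Its PSI was 1.0 and 1.0 with RBFOXi and 1.0 and 0.9645 with SCRM, on 29 counts in SCRM replicate 1. The largest delta PSI of PTK2 was 0.185, in a skipped exon event with at least 407 counts per library (limma, unadjusted p = 0.0407). That event was not called and was named after its value was seen.

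Other protein kinase genes known for a choice between mutually exclusive exons were taken as a second list, of 7 genes. It too was chosen with earlier results of these data known. Events were tested in 5 of them, MAPK8, MAPK9, MAPK10, MAPK14 and FGFR1, and 0 of 48 tested events were called (0%). Of the 48, only 13 were events of mutually exclusive exons, and 28 were skipped exon events. At an unadjusted p-value under 0.05 there were 4 of the 48, all in FGFR1 (8.33%, against 2.81% of all tested events). The median absolute delta PSI of the list was 0.00965, against 0.0125 over all tested events, while 8.33% of the list had an absolute delta PSI of 0.1 or more, against 4.6% of all. The largest was 0.279, in an FGFR1 skipped exon event with as few as 16 counts in a library (limma, adjusted p = 1.0), which was named after its value was seen. The events with the smallest p-values had a delta PSI of -0.0222 in MAPK8, -0.00457 in MAPK9 and 0.00270 in MAPK14, which encode stress-activated kinases, and of -0.0517 in FGFR1, a growth factor receptor (limma, adjusted p = 1.0 for each). The events named for MAPK8, MAPK9 and MAPK14 were skipped exon events, with a PSI of 0.9557 or more in every library. They do not show a choice within a mutually exclusive pair. The FGFR1 event of -0.0517 was one of mutually exclusive exons. Whether the events of this list differed from FYN was not tested.

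Markers of blood cells were examined because exon 7B is the usual form of T cells. Among the T cell and haematopoietic markers, PTPRC, CD3E, CD3D, CD3G, CD247, LCK, CD4 and CD8A have no event in the tables used here. The exon 7B form itself had 632 to 1980 counts per library. Of the neuronal markers, SNAP25 and MAP2 had at least 20 counts in every library and SYT1 did not, and RBFOX3 and SYN1 have no event. The summed counts on the largest events of the neuronal markers were 1078 to 1296 with RBFOXi and 548 to 1224 with SCRM.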

How the data were processed

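The authors kept reads that STAR 2.4.2a placed uniquely in hg19, and rMATS, with UCSC known genes as annotation, counted them for each splicing event. From the deposited files the read counts of the inclusion and skipping forms in each library, which are not normalized, and the effective lengths of the forms were used. In the deposited files other columns hold the authors' own p-values, FDR and inclusion levels, which were not used. For mutually exclusive exons the inclusion form is that of the exon nearer the 5′ end, checked from the form lengths. An event was tested if no library had fewer than 5 counts, the mean was 20 or more and each form had 4 or more in all. Log2 odds were computed after adding 0.5 to each count and fitted in limma 3.58.1 (R 4.3.3), with condition as the only term and with the prior variance allowed to depend on how many counts support the event. P-values were adjusted within event type. FYN sequences were read from GRCh37 (hg19), and exons were annotated with the lifted GENCODE 44 models. Python 3.11.15 and Biopython 1.88 were used.

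FYN and the gene lists were chosen with earlier results of these data known. The genes named were FYN, any called event of the lists, otherwise the event with the smallest p-value of SRC, YES1, LYN, CSK, PTK2, MAPK8, MAPK9, MAPK14 and FGFR1, and the 5 genes nearest to FYN. Alternatives covered the test, the pseudocount, the filter, the replicate block, the definition of PSI and each library left out. Not every marker and sequence examined is reported here.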

Additional observations from a re-analysis of the deposited data

How the results depend on the processing

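The delta PSI of FYN exon 7 was -0.255, and from -0.261 to -0.242 with plain shares, summed counts, the version after the 104 nt exon or junction counts alone, the last chosen after seeing the data. With each library left out in turn it ranged from -0.326 to -0.184. As the mean of the differences between same-numbered libraries, the form of the replicate block for this value, it was -0.255.

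Titles share an ending within each replicate number, but neither the labels nor the methods say what a number shares. Libraries of the same number deviated together only weakly (r = 0.0881 over mutually exclusive exons, 0.0944 over skipped exons). This correlation weighs all tested events alike, whatever their counts, so it cannot settle whether the numbers pair the libraries. Adding the replicate block to limma gave 77 called events of mutually exclusive exons (37 lower, 40 higher), 119 called skipped exon events and 8 of the Src pathway list, and 0 of the kinase exon list.

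Without the block, 0 events of mutually exclusive exons were called, and 2 with a pseudocount of 1 or with a quasi-binomial F test, which was chosen after seeing the data. For skipped exon events there were 27 calls, with 58 by the quasi-binomial test, 1 with a pseudocount of 0.1, and 44 when 1 count in each library sufficed. The Src pathway list had 1 call, with 2 by the quasi-binomial test and 0 with a pseudocount of 0.1. The cause was not tested. Leaving out each library gave 4 to 1400 events of mutually exclusive exons (1400 without SCRM replicate 2), 1 to 69 skipped exon events and 1 to 8 events of the Src pathway list. In these fits the lone library of a group is assumed to vary like the others. The kinase exon list kept 0 calls in every setting. A planned fit of the counts with a term per library was not run.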
